A study of Mus musculus with 4 samples.

Results

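The 10 genes described here encode heat shock chaperones of the cytosol and the mitochondrion: Hspa8, Hspa1a and Hspa1b of the Hsp70 family, their partners Dnajb1, Dnaja1 and Hsph1, the Hsp90 genes Hsp90aa1 and Hsp90ab1, and the mitochondrial pair Hspd1 and Hspe1. They were chosen by symbol, and all 10 were among the 32285 genes of the deposited features. They were read across the blood cell classes of mice labelled BL/6 or SM/J and aged 12 or 20 months. Mononuclear cells were isolated from blood drawn by cardiac puncture, passed through a density gradient, a slow spin against platelets and red cell lysis, and profiled with 10x Genomics 3′ single-cell RNA libraries. No allele or treatment is named in the labels for either strain. The cells of the 2 ages of a strain were marked with tag oligos and shared 1 gene expression library with 1 sequencing index, so there were 2 such libraries, and strain and run cannot be told apart. Each library was deposited split by tag into 2 matrices, giving 1 matrix for each of the 4 combinations of strain and age. Each matrix held 3 tags. Cells with the same tag are called an aliquot below and were not treated as replicates, since no source used here says what a tag marks. The age contrasts address ageing within a strain and the strain contrasts address genetic background.

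Chaperones hold unfolded proteins until they fold. Hsp70 proteins bind short exposed stretches in a cycle driven by ATP, J-domain proteins (the Dnaj genes) deliver clients to them and speed ATP hydrolysis, and exchange factors such as Hsph1 release the nucleotide. Hsp90 acts later, on kinases, steroid receptors and other nearly folded clients. Hspd1 (Hsp60) forms the folding chamber of the mitochondrial matrix and Hspe1 (Hsp10) its lid. Some members, such as Hspa8 and Hsp90ab1, are made at all times, whereas Hspa1a and Hspa1b are the classic genes switched on by the transcription factor Hsf1 under heat or other stress, including the handling of cells.

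The Hspa1a and Hspa1b sequences are shown because these 2 genes were counted apart although they are near copies. In GRCm38, the build that the submitters' processing notes name as mm10, the GENCODE annotation places Hspa1b at chr17:34956436-34959238 and Hspa1a at chr17:34969190-34972156, both on the minus strand, with 1 exon each and 9951 bases between them. The 250 bases before each start, taken from RefSeq (GRCm38.p6, minus strand) at chr17:34972157-34972406 for Hspa1a and chr17:34959239-34959488 for Hspa1b, are printed 5′ to 3′ with the match to the motif GAANNTTC in capitals.
Hspa1a: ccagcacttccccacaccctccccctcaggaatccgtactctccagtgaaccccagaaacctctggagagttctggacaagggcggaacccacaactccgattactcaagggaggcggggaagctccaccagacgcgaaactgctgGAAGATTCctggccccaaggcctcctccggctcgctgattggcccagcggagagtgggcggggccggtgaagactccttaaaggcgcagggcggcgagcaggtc
Hspa1b: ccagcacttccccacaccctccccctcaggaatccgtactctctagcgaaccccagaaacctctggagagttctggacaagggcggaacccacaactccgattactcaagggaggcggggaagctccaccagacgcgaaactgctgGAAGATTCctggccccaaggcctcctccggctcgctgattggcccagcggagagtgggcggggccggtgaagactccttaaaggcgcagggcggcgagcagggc
The match GAAGATTC began at base 104 before the start in both. Over the whole RefSeq windows, 250 bases before to 50 bases after the start, the genes differed at 4 of 300 bases (98.7% identity), with the substitutions C44T, T47C, T249G and C276T, written with the Hspa1a base first and counted from 1 at the 5′ end of the window. GAANNTTC and TTCNNGAA, the 2 ways of joining adjacent GAA units of a heat shock element, were searched. Each is its own reverse complement, so both strands are covered, and their matches may overlap. Of 32851 RefSeq windows of the same length, 15.1% held either motif and 1.96% held 2 or more matches. The members had 12 such windows, and 7 of the 12 held a match. These windows belong to 7 members, and the 7 with a match to 6 of them: Hspa1a, Hspa1b, Hspd1, Hspe1, Hsph1 and Dnaja1. Hspd1 and Hspe1 lie head to head at chr1:55077835-55088243 (minus strand) and chr1:55088132-55091307 (plus strand) and share 112 bases. The windows of both hold the same run of 3 overlapping matches, printed here on the plus strand from chr1:55088053-55088082.
Hspe1: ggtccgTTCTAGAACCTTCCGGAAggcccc
These are matches of letters in the C57BL/6J reference and say nothing of the factor or of the SM/J sequence. Of the 90-base windows of the Hspa1a coding sequence, 71.0% (1305 of 1837) also occur in Hspa1b, whereas in the last 500 bases of either transcript 0 of 411 do. A 3′ read from the end of a transcript can therefore be assigned, and one from the coding sequence often cannot. How the authors' counting treated such reads is not stated in the sources at hand. The split between Hspa1a and Hspa1b is uncertain and their sum is used where it matters. The remaining loci are Dnaja1 at chr4:40722150-40737149 (plus), Hsph1 at chr5:149614287-149636376 (minus), Dnajb1 at chr8:83608193-83612653 (plus), Hspa8 at chr9:40800984-40810087 (plus), Hsp90aa1 at chr12:110690605-110702728 (minus) and Hsp90ab1 at chr17:45567775-45573271 (minus).

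Of 12299 deposited cells, 11596 were kept, between 2407 and 3398 per matrix, with 14250603 to 30627357 UMIs deposited per matrix. A UMI stands for 1 captured molecule. Kept cells had a median depth of 4060 UMIs (BL/6, 12 months), 4914 (BL/6, 20 months), 4729 (SM/J, 12 months) and 8837 (SM/J, 20 months), so the last matrix stands apart in depth. The 10 members took 0.176%, 0.180%, 0.241% and 0.282% of the UMIs in this order, which is used from here on. Matrices of 1 run shared 0 cell barcodes, and matrices of different runs shared 1 to 3. At least 50 cells were found in every matrix for 5 classes: B cell-like, T cell-like, NK cell-like, classical monocyte-like and nonclassical monocyte-like cells, called by the short names below. Clusters were named from markers, and different clusters held most of a class in the 2 strains: B cells lay mainly in clusters 0 and 1 in BL/6 but in clusters 15 and 6 (12 months) or 17 (20 months) in SM/J, classical monocytes in cluster 3 or 24, and nonclassical monocytes in cluster 4 or 23. Names were rebuilt here, so part of a difference between strains may come from them. Levels are CPM: the UMIs of a gene were summed over the cells of a class in a matrix, divided by all UMIs of those cells and multiplied by 1000000. Since 3′ UMIs do not depend on transcript length, CPM can be set side by side between genes. Intervals cover counting error alone. With 1 matrix per group, and 1 library per strain, there is no test. A difference is called below when it was at least 1.5-fold and the 3 aliquots of 1 matrix all lay above the 3 of the other, among genes with at least 100 UMIs over both matrices and a mean of at least 20 CPM. The share of all such genes that were called is the background for each count.

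**Figure D1:**
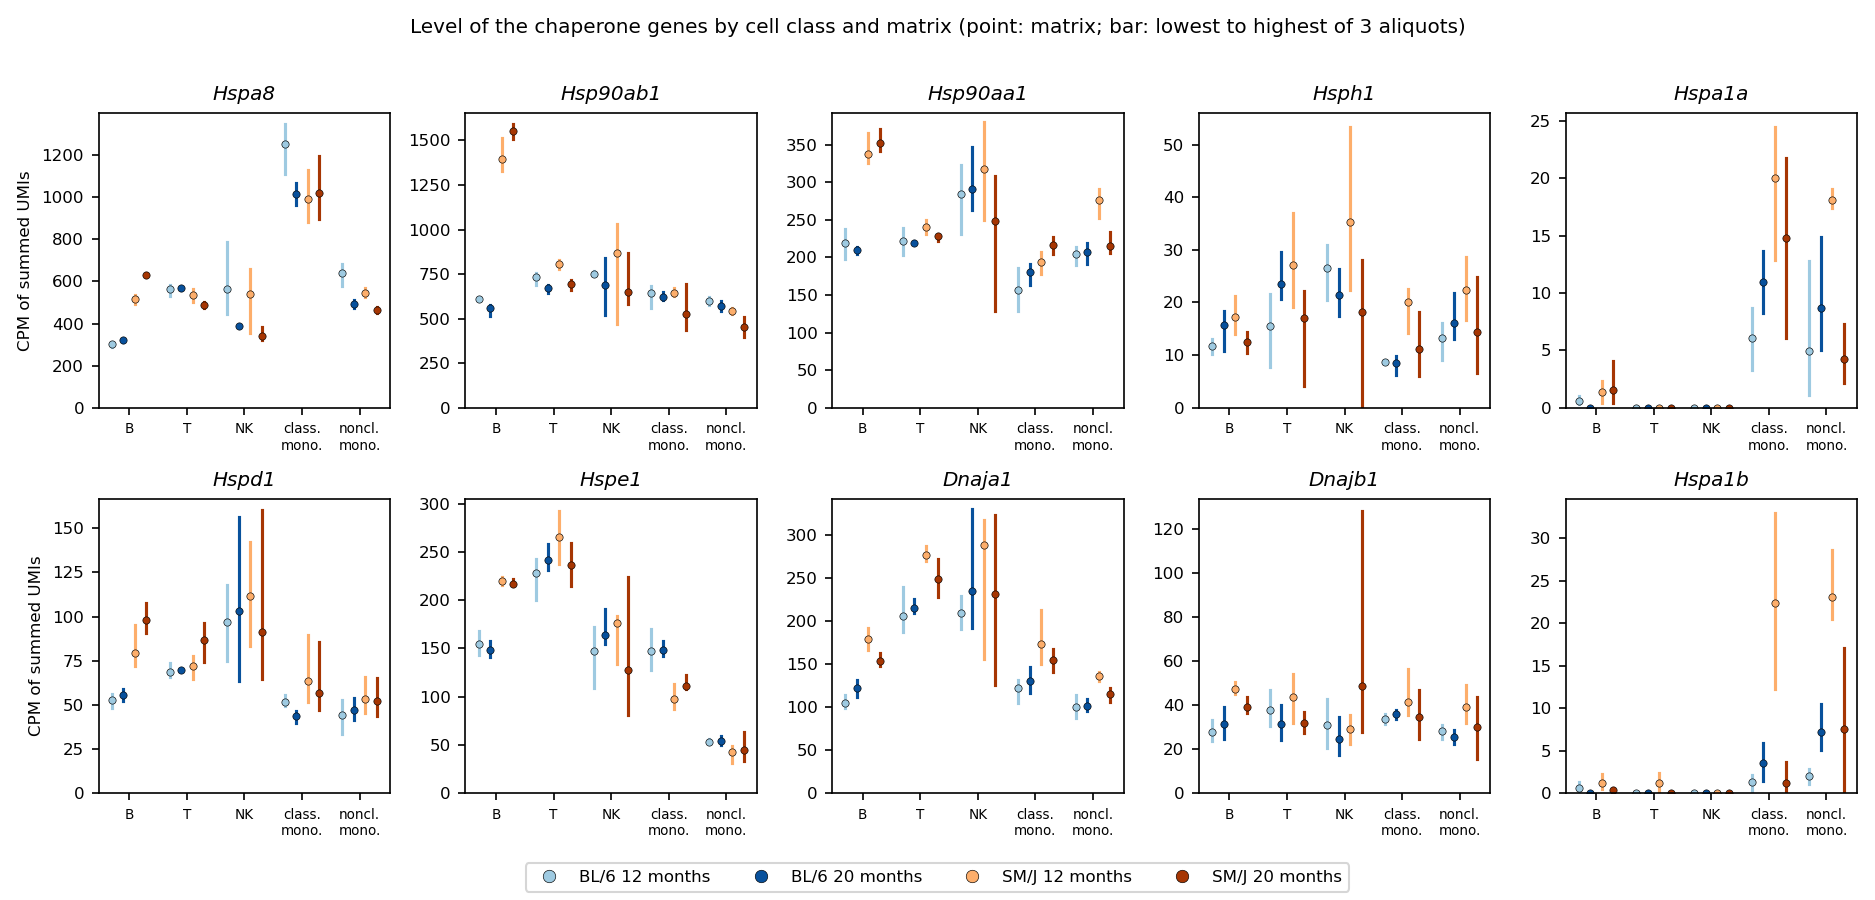
Levels of the 10 members in CPM (vertical axes, linear from 0) in 5 cell classes. Each point is 1 matrix (BL/6 or SM/J at 12 or 20 months) and each bar runs from its lowest to its highest aliquot. Hspa8 stood highest in classical monocytes (989 to 1254 CPM) and Hsp90ab1 in SM/J B cells (1393 and 1553 CPM), while Hspa1a and Hspa1b were near 0 in B and T cells. NK cells had 0 UMIs of either, which allows 6.62 to 18.2 CPM of each by a limit of 3 counts.

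Hspa8, the constitutive Hsp70 that also strips clathrin from vesicles, was highest in classical monocytes among the 5 classes. Its level there was 1254, 1013, 989 and 1018 CPM. In T cells it was 564, 568, 538 and 487 CPM, and in nonclassical monocytes 639, 494, 545 and 465 CPM. B cells differed by strain, with 301 and 321 CPM in BL/6 and 518 and 630.3 CPM in SM/J. Aliquots of classical monocytes ranged from 882 to 1346 CPM, and those of T cells from 474 to 580.4 CPM, with no overlap. The ratio of classical monocytes to T cells was 1.78- to 2.22-fold, and that of classical to nonclassical monocytes 1.81- to 2.19-fold. The median depth of classical monocytes was 6885 to 8657 UMIs against 3994 to 5614 in T cells, and 15 immediate early genes, which also respond to the handling of cells, summed to 6467 to 7588 CPM against 3416 to 4219 CPM. Nonclassical monocytes had a similar immediate early sum, 6553 to 6922 CPM, with Hspa8 near the T cell level. Their part in the Hspa8 levels was not tested. After thinning to 1000 UMIs per cell, which levels the depth, 57.6% to 64.4% of classical monocytes and 35.0% to 43.4% of T cells had an Hspa8 UMI.

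Hspa1a and Hspa1b, the inducible Hsp70 genes, were found mainly in monocytes, macrophage-like and plasmacytoid dendritic cell-like cells at this depth and were near 0 in B and T cells. NK cells had 0 UMIs of either in all 4 matrices, which allows 6.62 to 18.2 CPM of each by a limit of 3 counts. T cells had 2 Hspa1b UMIs in SM/J at 12 months and otherwise 0. B cells reached at most 1.59 CPM of either gene. In classical monocytes Hspa1a was at 6.10, 11.0, 20.0 and 14.8 CPM and Hspa1b at 1.31, 3.58, 22.4 and 1.24 CPM. In nonclassical monocytes Hspa1a was at 4.96, 8.66, 18.1 and 4.22 CPM and Hspa1b at 2.07, 7.22, 23.1 and 7.59 CPM. Both genes were thus highest in the SM/J matrix at 12 months in both monocyte classes. These values rest on 1 to 65 UMIs per gene and matrix. In 2 classes too small for the contrasts, the sum of both genes was 11.6, 16.9, 17.5 and 9.62 CPM in macrophage-like cells and 5.92, 15.8, 10.5 and 9.03 CPM in plasmacytoid dendritic cell-like cells. The latter rest on 2, 9, 4 and 4 UMIs, and 3.45%, 9.43%, 8.16% and 4.35% of these cells had a UMI of either gene.

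The J-domain partners followed a different order. Dnaja1, a farnesylated cytosolic J-domain protein, was at 206, 215, 277 and 249 CPM in T cells and at 209.5, 235, 288 and 231 CPM in NK cells. It was lower in B cells (105, 122, 179 and 153 CPM), classical monocytes (122, 129.7, 173 and 154 CPM) and nonclassical monocytes (100.1, 102, 136 and 116 CPM). Dnajb1, the J-domain protein most tied to the heat shock response, lay between 24.9 and 48.6 CPM in all 5 classes. Hsph1, an Hsp110 exchange factor, lay between 8.50 and 35.2 CPM, and in NK cells that meant 3 to 12 UMIs. Both partners were highest in a class too small for the contrasts: BL/6 basophil-like cells (40 and 56 cells) had 425 and 347 CPM of Dnaja1 and 175 and 156 CPM of Dnajb1. In these basophils the immediate early genes summed to 30935 and 26803 CPM, the highest sum of any class with 20 or more cells, and their part in the Dnaja1 and Dnajb1 levels was not tested.

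Hsp90ab1, the constitutive Hsp90, was the most abundant member in lymphocytes. It was at 733, 671, 807 and 696 CPM in T cells and at 749.9, 689.9, 869 and 650.2 CPM in NK cells. Classical monocytes had 642, 622, 646 and 527 CPM and nonclassical monocytes 597, 569, 544 and 455 CPM. In B cells the strains parted, with 609 and 559.5 CPM in BL/6 and 1393 and 1553 CPM in SM/J, so that B cells lay below T cells in BL/6 and above them in SM/J. Hsp90aa1, the inducible Hsp90, was lower in each of the 5 classes, from 157 CPM in BL/6 classical monocytes to 353 CPM in SM/J B cells. The ratio of Hsp90ab1 to Hsp90aa1 was 2.77, 2.66, 4.12 and 4.40 in B cells. BL/6 platelet-like cells turned the order round, with 226 and 207 CPM of Hsp90aa1 against 30.8 and 13.8 CPM of Hsp90ab1 (44 and 45 against 6 and 3 UMIs in 150 and 173 cells). Platelets carry RNA made in their parent cell and were shallow here, at a median of 1034.5 and 998 UMIs.

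The mitochondrial pair did not keep 1 ratio across classes. Hspe1 was at 228, 241, 265 and 236 CPM in T cells, 155, 149, 219 and 217 CPM in B cells and 148, 164, 176 and 128 CPM in NK cells. It was at 147, 148, 97.9 and 111 CPM in classical monocytes and only 53.3, 54.6, 42.6 and 44.7 CPM in nonclassical monocytes, whose aliquots (31.0 to 63.4 CPM) lay below every aliquot of the other 4 classes. Hspd1 was flatter, from 43.6 to 112 CPM over the 5 classes. Hspe1 over Hspd1 was 3.32, 3.47, 3.67 and 2.72 in T cells and 1.21, 1.16, 0.795 and 0.855 in nonclassical monocytes. The sense strands of these head-to-head genes differ, and since a 3′ kit reads the end of each transcript, their shared 112 bases lie far from the counted ends.

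Calls between classes were counted over all 4 matrices and are given beside the share of all genes called. Of 6 members past the minimum in every matrix, classical monocytes had 1 called higher than T cells (Hspa8), beside a background of 27.1% of genes, and 2 called lower (Dnaja1 at 0.594- to 0.627-fold and Hspe1 at 0.372- to 0.648-fold), beside 12.3%. Nonclassical monocytes had 0 of 6 called higher than T cells, beside 33.6%, and 2 lower (Dnaja1 at 0.467- to 0.493-fold and Hspe1 at 0.164- to 0.238-fold), beside 11.5%. B cells had 0 of 7 higher than T cells, beside 9.01%, and 1 lower (Dnaja1 at 0.512- to 0.648-fold), beside 6.94%. NK cells had 0 of 5 called either way, beside 9.60% higher and 11.9% lower. Classical over nonclassical monocytes gave 2 of 6 higher (Hspa8, and Hspe1 at 2.27- to 2.73-fold), beside 8.92%, and 0 lower, beside 12.9%. The called members were thus Hspa8, Dnaja1 and Hspe1. With 5 to 7 members per comparison, these counts are too small to set the members apart from genes at large. Hspa1a, below the minimum, was at 6.10 to 20.0 CPM in classical monocytes and had 0 UMIs in T cells, with the aliquots apart in all 4 matrices. After thinning to 1000 UMIs, where few genes pass the minimum, the called counts against T cells fell to 0, with the medians of these members still on the same side.

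With age, 0 of the 50 pairs of member and class were called in BL/6 (33 passed the minimum) and 0 of 50 in SM/J (28 passed). The background in BL/6, in either direction, was 2.21% of genes in B cells, 3.70% in T cells, 5.19% in NK cells, 6.78% in classical monocytes and 6.74% in nonclassical monocytes. In SM/J it was 3.40% in T cells, 2.58% in NK cells, 7.57% in classical monocytes and 3.88% in nonclassical monocytes, and 23.7% in B cells, where 0 of 7 members passing the minimum were called. Among the members past the minimum, Hspa8 in NK cells had the lowest age ratios, given after the plot of age ratios. Hspa8 was also lower at 20 months in the monocytes of BL/6. Nonclassical monocytes had 579, 668 and 684.5 CPM in the aliquots at 12 months and 496.5, 512.5 and 474 CPM at 20 months, which did not overlap, with a ratio of 0.775-fold (log2 −0.37). Classical monocytes had 1346, 1107 and 1278 CPM against 1069, 1021 and 961 CPM (log2 −0.31), again without overlap. Both stayed inside 1.5-fold. Non-overlap of aliquots alone is a weaker criterion than the call, and the share of all genes that met it is not given here. The same holds for the uncalled age ratios below.

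**Figure D2:**
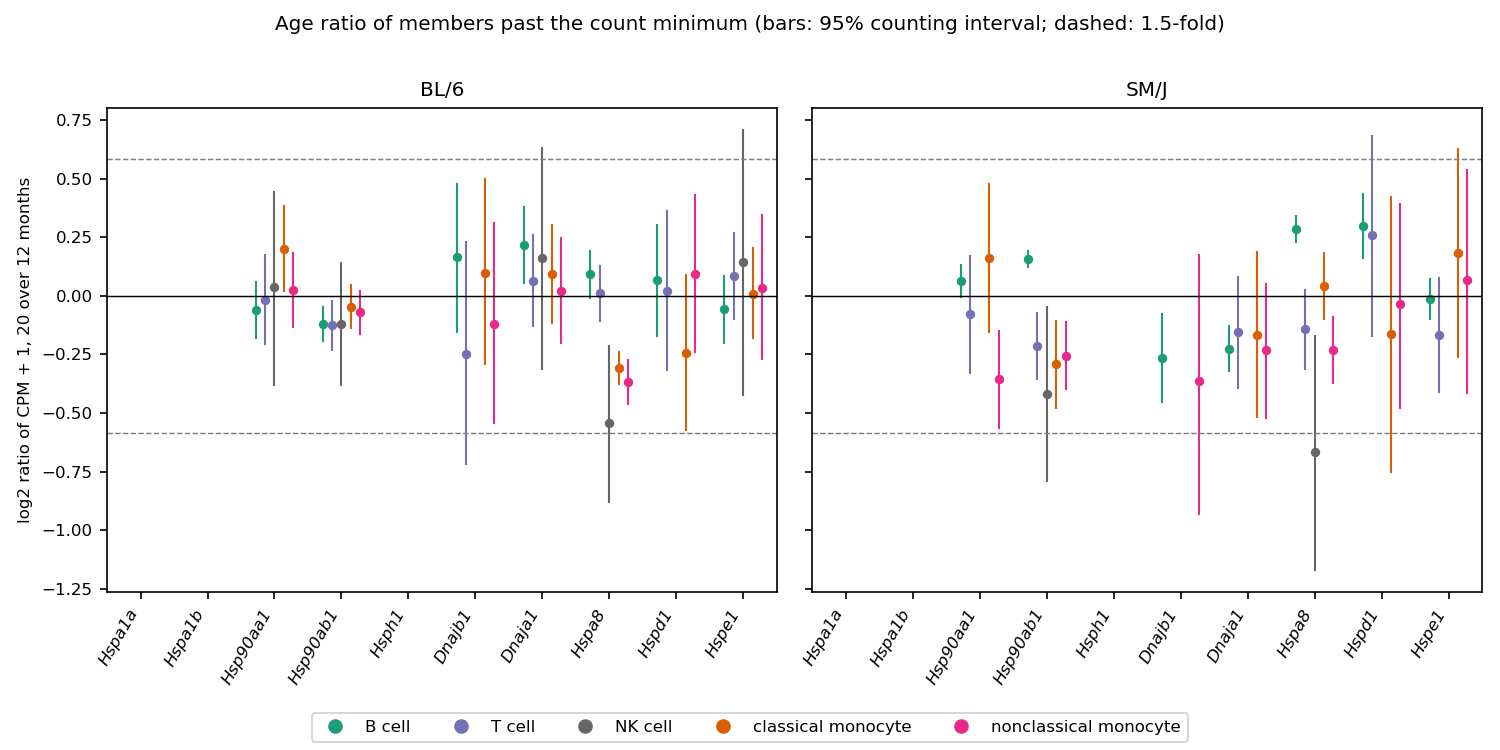
Log2 ratio of CPM + 1 at 20 over 12 months (vertical axes) for the members past the count minimum, by class, in BL/6 (left) and SM/J (right). Bars are 95% counting intervals and dashed lines mark 1.5-fold. Most points lie between the lines, and Hspa8 in NK cells of SM/J (−0.66) lies outside with overlapping aliquots.

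NK cells showed the lowest Hspa8 age ratios in both strains. BL/6 NK cells had 446, 489.5 and 788 CPM in the aliquots at 12 months and 392, 386 and 382 CPM at 20 months (log2 −0.54, interval −0.88 to −0.21), without overlap. SM/J NK cells had 634, 357 and 658 CPM at 12 months and 385, 339 and 322 CPM at 20 months (log2 −0.66, interval −1.17 to −0.17), and these overlapped. The BL/6 ratio stayed inside 1.5-fold, and the larger SM/J ratio rests on 92 and 56 UMIs. Without aliquot 1 or without aliquot 2 of BL/6 at 12 months the BL/6 ratio was called, at log2 −0.70 or −0.63. Without aliquot 2 of SM/J at 12 months the SM/J ratio was called, at −0.83. Each of these omissions took out an aliquot at 12 months that lay below the level of its matrix, which enlarges the fall. Leaving out the BL/6 aliquot at 788 CPM, or the SM/J aliquot at 634 or 658 CPM, makes the fall smaller. The ratios without those aliquots are not given here. The BL/6 fall thus rests in part on the aliquot at 788 CPM. In SM/J B cells Hspa8 was 536.6, 494 and 526 CPM at 12 months and 639, 622 and 631 CPM at 20 months (1.22-fold), the opposite side from the monocytes of BL/6. SM/J B cells lay mostly in different clusters at the 2 ages. At 12 and 20 months the members summed to 3494 and 2655 CPM in cluster 6, 2003 and 1749 CPM in cluster 15 and 2269 and 2338 CPM in cluster 5. The part of cluster make-up in the age ratios of SM/J B cells was not tested. The median log2 age ratio of the members past the minimum was 0.07 in BL/6 B cells, against 0.05 over all genes, and 0.06 in SM/J B cells, against −0.06. The widest gap was in SM/J NK cells, −0.54 against −0.0065, where only Hspa8 and Hsp90ab1 (869 and 650.2 CPM, log2 −0.42) passed the minimum. In SM/J nonclassical monocytes it was −0.23 against −0.02, where Hsp90aa1 was 276 CPM at 12 and 216 CPM at 20 months (0.783-fold, aliquots apart).

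Between the strains, nearly all called members past the minimum were in B cells. At 12 months, 5 of the 7 members past the minimum were called higher in SM/J, beside a background of 8.34% of genes called higher, and at 20 months 4 of 7, beside 19.4%. Hsp90ab1 had the largest ratio among them. Its aliquots were at 607, 618.5 and 604 CPM in BL/6 at 12 months and 1512, 1329 and 1352 CPM in SM/J at 12 months. At 20 months they were at 576, 516 and 571 CPM in BL/6 and 1561, 1509 and 1594 CPM in SM/J. Every SM/J aliquot lay above every BL/6 aliquot, with ratios of 2.29-fold (log2 1.19, interval 1.14 to 1.24) at 12 months and 2.77-fold (log2 1.47, interval 1.41 to 1.54) at 20 months.

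Hspa8 was 1.72-fold higher in SM/J B cells at 12 months and 1.96-fold at 20 months, and its BL/6 aliquots (291 to 327 CPM) lay below those of SM/J (494 to 639 CPM). Hsp90aa1 was 1.54- and 1.67-fold higher, from 198 to 238 CPM in BL/6 aliquots and 325 to 371 CPM in SM/J aliquots. Dnajb1 and Dnaja1 were called at 12 months, at 1.68- and 1.70-fold, but were at 1.25-fold each at 20 months and not called. Hspd1 was at 1.49-fold at 12 months, just under the threshold, and 1.75-fold at 20 months, where it was called. Hspe1, its partner, was at 1.41- and 1.46-fold and not called at either age. The median log2 ratio of the 7 members was 0.75 at 12 and 0.74 at 20 months, against −0.09 and −0.22 for all genes past the minimum. Scaling by TMM factors moved the median of all genes at 20 months to 0.07 and added Dnajb1, Dnaja1 and Hspe1, so that 7 of 7 members were called in B cells there, beside 29.3% of all genes called higher under the same scaling.

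The B cells of the 2 strains lay mostly in different clusters, and the member levels differed both between clusters and, in part, between strains within a cluster. Cluster 5 was the B cell cluster with over 100 cells in each matrix (326, 132, 148 and 255 cells). Within it Hsp90ab1 was at 844, 805, 964 and 1029 CPM, a strain ratio of 1.14-fold at 12 and 1.28-fold at 20 months, and Hspa8 was at 387, 400.0, 533 and 545 CPM, or 1.38- and 1.36-fold. In cluster 5, 0 members were called higher at 12 months, beside 4.30% of genes, and 1 at 20 months (Hspe1, 1.53-fold), beside 5.53%. This comparison within cluster 5 was added after the data had been seen. Cluster 1 kept a larger strain difference at 12 months: Hsp90ab1 was at 569 CPM in BL/6 (387 cells) and 927 CPM in SM/J (85 cells), with aliquots of 559.9 to 583 and 855 to 988 CPM, and the 10 members summed to 1323 and 2154 CPM. In cluster 0, with 32 SM/J cells at 12 months, Hsp90ab1 was at 512 and 536 CPM and the members summed to 1345 and 1757 CPM. In cluster 15, with 21 BL/6 cells at 12 months, Hsp90ab1 was at 645 and 787 CPM and the members summed to 1659 and 2003 CPM. The summed level was thus higher in SM/J in each of these 4 clusters at 12 months. The highest Hsp90ab1 was in 3 clusters held by SM/J, though not in cluster 15, which SM/J also held (787 and 717 CPM). It was at 1951 and 1185 CPM in cluster 6 at 12 and 20 months, 1552 CPM in cluster 17 (848 cells at 20 months) and 2322 CPM in cluster 20 (69 cells at 20 months), whose leading genes include the division genes Mki67 and Top2a. Clusters 17 and 20 were also deep, at medians of 12466 and 27583 UMIs per cell. The immediate early genes in B cells summed to 3714, 3990.0, 4744 and 5682 CPM, moving with strain, and in cluster 5 to 4035, 5053, 4385 and 4985 CPM, without that order. Thinned to 1000 UMIs per cell, 41.4%, 40.0%, 64.6% and 65.2% of B cells had an Hsp90ab1 UMI. The parts of strain, run and cluster make-up cannot be told apart.

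**Figure D3:**
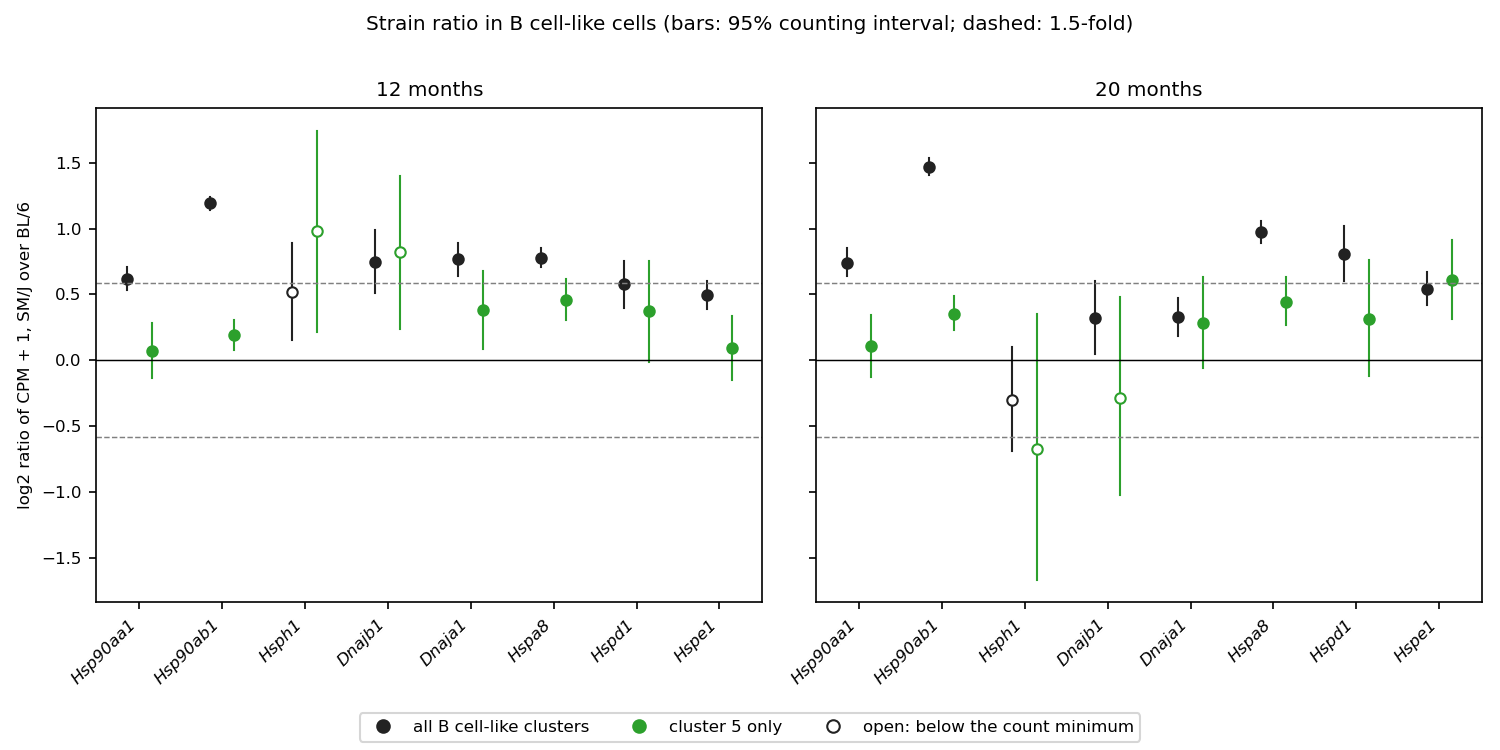
Log2 ratio of CPM + 1, SM/J over BL/6 (vertical axes), for 8 members in B cells at 12 months (left) and 20 months (right), over all B cell clusters (black) and cluster 5 alone (green). Bars are 95% counting intervals, dashed lines mark 1.5-fold and open points are below the count minimum. Hsp90ab1 was at 1.19 and 1.47 over all clusters and at 0.19 and 0.35 in cluster 5.

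**Figure D4:**
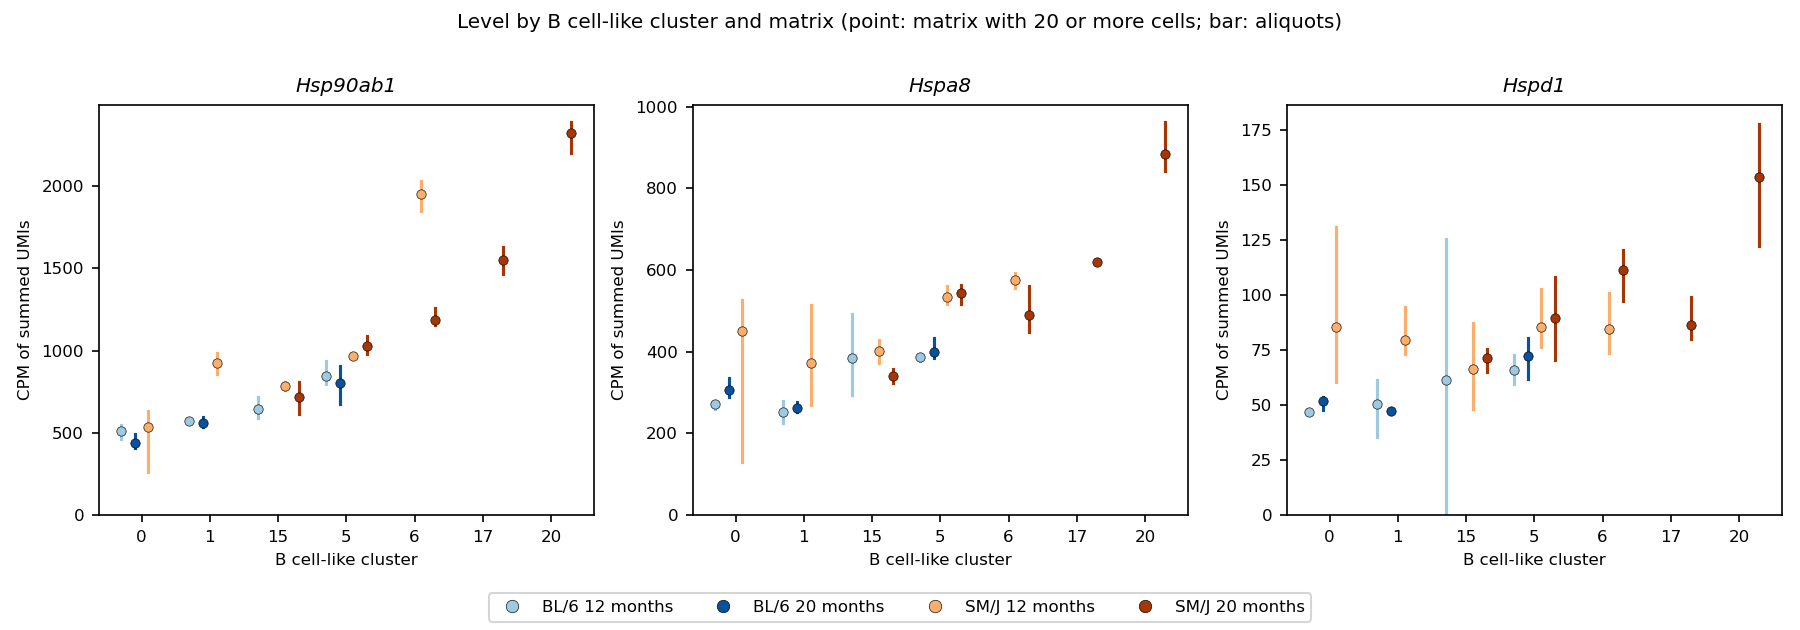
CPM (vertical axes) of Hsp90ab1, Hspa8 and Hspd1 in each B cell cluster with 20 or more cells in a matrix (point) with its lowest to highest aliquot (bar). In cluster 5, which every matrix filled, Hsp90ab1 ran from 805 to 1029 CPM, against 441 CPM in cluster 0 of BL/6 at 20 months and 2322 CPM in cluster 20 of SM/J at 20 months.

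Outside B cells, 1 pair of member and class past the minimum was called between the strains, and Hspa1a and Hspa1b, mostly below the minimum, are described apart. In T cells 0 of 7 members were called at either age, beside 11.6% of genes called in either direction at 12 months and 11.2% at 20 months. In NK cells 0 of 4 were called at 12 months, beside 5.00% of genes called higher and 8.04% lower, and 0 of 4 at 20 months, beside 11.7% in either direction. In nonclassical monocytes 0 of 7 were called at either age, beside 16.3% and 11.6%. Classical monocytes had 1 of 7 called at 12 months, beside 16.1%, and 0 of 7 at 20 months, beside 14.1%. The called member was Hspe1, lower in SM/J, beside 5.91% of genes called lower: 97.9, 113 and 87.2 CPM in the SM/J aliquots against 128, 150.1 and 171 CPM in those of BL/6. Its log2 ratio, −0.59, lay at the threshold of 0.58, and the call was lost at −0.30 in cells thinned to 1000 UMIs, at −0.48 with a mitochondrial limit of 5% and at −0.48 without aliquot 3 of BL/6. At 20 months the same ratio was 0.751-fold.

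Hspa1a and Hspa1b in monocytes were too low for the minimum in most contrasts, so their sum is described. In classical monocytes the sum was 7.41, 14.5, 42.4 and 16.1 CPM, from 17, 65, 36 and 13 UMIs. The aliquots were at 5.45, 8.74 and 8.68 CPM in BL/6 at 12 months and 12.0, 11.0 and 19.6 CPM at 20 months. In SM/J they were at 36.7, 56.6 and 38.8 CPM at 12 months and 6.13, 25.4 and 13.5 CPM at 20 months. Neither strain's ages overlapped, with the 20-month matrix higher in BL/6 (log2 0.89, interval 0.17 to 1.63; 3.19% of genes past the minimum were called higher) and lower in SM/J (log2 −1.35, interval −2.32 to −0.44; 4.77% were called lower). The difference between the strains was not tested. At 12 months SM/J was 5.17-fold above BL/6 (10.2% of genes called higher). These shares are of genes past the minimum, which the sum in classical monocytes did not reach in any contrast. With a minimum of 10 UMIs only, the share of genes called over the 5 classes was larger. The shares given here may therefore make the sum look rarer than it is.

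In nonclassical monocytes the sum was 7.03, 15.9, 41.2 and 11.8 CPM, from 17, 77, 116 and 14 UMIs. SM/J had 47.8, 39.0 and 37.9 CPM in the aliquots at 12 months and 3.11, 6.60 and 24.4 CPM at 20 months, without overlap (log2 −1.72; 2.60% of genes called lower). BL/6 had 2.15, 5.14 and 15.7 CPM at 12 and 12.1, 25.5 and 10.1 CPM at 20 months, which overlapped (log2 1.07). At 12 months SM/J was 5.25-fold above BL/6, without overlap (10.5% of genes called higher). Single aliquots moved these log2 ratios. Without aliquot 3 of BL/6 at 12 months, the BL/6 age ratio was 1.91 with the aliquots apart and the strain ratio at 12 months went from 2.39 to 3.23, and without aliquot 3 of SM/J at 20 months the SM/J age ratio was −2.78. Other omissions made them smaller. The BL/6 age ratio was 0.61 without aliquot 1 at 12 months and 0.59 without aliquot 2 at 20 months. The strain ratio at 12 months was 1.93 without aliquot 1 of BL/6. The SM/J age ratio was −1.39 without aliquot 2 at 20 months. The SM/J matrix at 12 months was therefore the high one in both classes.

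**Figure D5:**
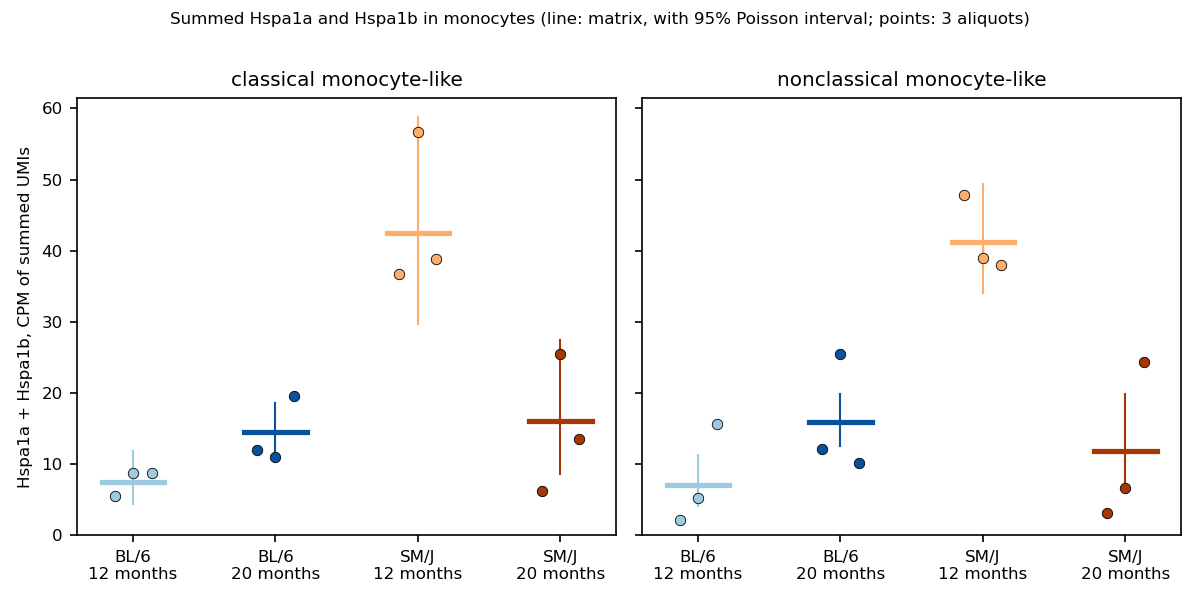
Summed level of Hspa1a and Hspa1b in CPM (vertical axes) in classical and nonclassical monocytes. Points are aliquots, and the line and bar give the matrix and its 95% Poisson interval. The aliquots of SM/J at 12 months (36.7 to 56.6 and 37.9 to 47.8 CPM) lie above all others.

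Few cells carried these transcripts. An Hspa1a or Hspa1b UMI was found in 6.58%, 9.70%, 23.0% and 11.1% of classical monocytes and in 2.29%, 6.53%, 18.9% and 4.40% of nonclassical monocytes. In T cells, which gave the background for free RNA, the shares were 0%, 0%, 0.597% and 0%, at median depths of 3994 to 5614 UMIs against 5482 to 8657 in monocytes. Thinned to 1000 UMIs, 0.286%, 1.56%, 4.05% and 1.26% of nonclassical monocytes had one. In SM/J nonclassical monocytes at 12 months, 5 of 370 cells had 3 or more UMIs and held 32.8% of the 116 UMIs, with 15 in 1 cell. Leaving out such cells, an alternative added after seeing the data, kept the age ratio of SM/J nonclassical monocytes below 0 and past 1.5-fold with the aliquots apart, and ended the non-overlap or the 1.5-fold of both strains in classical monocytes, at log2 0.55 in BL/6 and −1.15 in SM/J. No classical monocyte of BL/6 at 12 months or of SM/J at 20 months had 3 or more UMIs. In that class the filter thus took these UMIs only from the higher matrix of each strain, which could only shrink both ratios. In BL/6 nonclassical monocytes leaving out such cells had the opposite effect, with the aliquots of the 2 ages apart at log2 1.37. The immediate early genes summed to 6467, 6973.5, 7588 and 7329.7 CPM in classical and 6814, 6922, 6553 and 6796 CPM in nonclassical monocytes, beside Hspa1 sums of 7.41, 14.5, 42.4 and 16.1 CPM and of 7.03, 15.9, 41.2 and 11.8 CPM. In classical monocytes the matrices thus had the same order by both sums, whereas in nonclassical monocytes the matrix with the highest Hspa1 sum, SM/J at 12 months, had the lowest immediate early sum. The part of the immediate early genes in the Hspa1 levels was not tested.

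A further 66 chaperones and co-chaperones were read the same way. In BL/6 with age, 2 of 43 past the minimum in classical monocytes were called, both higher: Cct6a, a subunit of the TRiC folding ring (1.56-fold), and Bag3, an exchange factor (1.55-fold). This was beside 3.19% of all genes called higher, so the share was near the background. In the other 4 classes of BL/6, 0 were called. In SM/J with age, B cells had 3 of 46 called higher, beside 10.3% of all genes, and 0 lower, beside 13.4%. With TMM factors the shares of all genes were 17.2% higher and 8.52% lower, so their balance depends on the scaling. Within B cell cluster 5 they were 1.78% and 1.36%. Of the 3 called, the small heat shock protein gene Hspb1 was at 18.3 CPM at 12 and 97.3 CPM at 20 months (5.10-fold), Dnajc7 at 336.5 and 653 CPM (1.94-fold) and Bag1 at 1.65-fold. Fkbp5, an Hsp90 co-chaperone induced by glucocorticoids, was higher at 20 months in SM/J classical monocytes (15.3 and 107.5 CPM, 6.64-fold) and nonclassical monocytes (25.6 and 129 CPM, 4.90-fold), where Stip1, which links Hsp70 to Hsp90, was lower (0.636-fold). Fkbp5 was the 1 of 25 called in classical monocytes, beside 2.81% of genes called higher, and Fkbp5 and Stip1 were the 2 of 42 called in nonclassical monocytes, beside 1.29% higher and 2.60% lower. In the monocytes of BL/6 Fkbp5 did not pass the minimum in the age contrast.

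Between strains, B cells had 6 of 44 of these genes called higher in SM/J and 0 lower at 12 months, beside 8.34% of all genes called higher and 21.4% called in either direction. At 20 months 13 of 47 were called higher, beside 19.4%, and 3 lower, beside 32.1%. With TMM factors the shares of all genes at 20 months were 29.3% higher and 20.6% lower. The largest at 12 months were Chordc1 (1.69-fold), an Hsp90 co-chaperone, and St13 (1.68-fold), which stabilizes Hsp70. At 20 months Hspb1 was at 97.3 CPM in SM/J and had 0 UMIs in BL/6, at least 123-fold higher against a limit of 3 counts for the matrix, and Dnajc7 was at 2.76-fold, while Unc45a (0.456-fold) and Hspa4 (0.533-fold) were lowest. The median log2 ratio of the list in B cells was 0.24 and 0.39, against −0.09 and −0.22 for all genes. St13 was called higher in SM/J in B cells, T cells and both monocyte classes at both ages. In monocytes at 20 months Fkbp5 (7.41- and 5.69-fold) and Hspa13 (3.87- and 3.38-fold), an Hsp70 relative, were highest, and the prefoldin subunit Pfdn6 (0.527- and 0.510-fold) lowest. There 4 of 44 were called higher and 3 lower in classical monocytes, beside 8.01% and 6.12% of genes, and 4 and 4 of 45 in nonclassical monocytes, beside 6.57% and 5.07%. With TMM factors these shares of genes were 4.08% and 10.7% in classical and 4.29% and 7.27% in nonclassical monocytes. Their balance thus turned round with the scaling.

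Across 25 sums of a class in a matrix with at least 50 cells, 2 of them from platelets with 0 to 6 UMIs of Hsp90ab1, Hspd1 and Hspe1, the correlation of members depended on the platelets. Pearson's r of log2(CPM + 1) was 0.91 for Hsp90ab1 with Hspe1 and with Hspd1 and 0.87 for Hspd1 with Hspe1. Over the 23 sums without platelets, an alternative added after seeing the data, these values were 0.63, 0.63 and 0.53. Dnajb1 with Hsp90ab1 went from 0.78 to −0.12 and Dnajb1 with Hspd1 from 0.85 to −0.24, so those values rest on the platelet sums. Hspa1a with Hspa1b was at 0.77 with and 0.83 without platelets, and Hspa1b with Hspe1 at −0.54 and −0.64. Hsp90aa1 with Hsp90ab1 went from 0.34 to 0.72. Among 6151 other genes with a mean of at least 20 CPM, those most like Hspa1a were Hmox1 (0.90), Plxnb2 (0.89), Psap (0.88), Krt80 (0.88) and Sh3bgrl (0.88), and these 5 stayed between 0.88 and 0.91 without platelets. Hspa1a had 0 UMIs in all T and NK cell sums and at most 1.59 CPM in B cells. Its values therefore mostly set monocyte sums against sums at or near 0 CPM. Those most like Hspa8 were Npc2 (0.94), Timm10b (0.92), Clta (0.91), Vsir (0.91) and Aprt (0.90), at 0.90, 0.82, 0.80, 0.80 and 0.89 without platelets. The sums share matrices and classes, and these values are descriptions.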

How the data were processed

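Cells of blood were measured by 10x Genomics 3′ RNA sequencing. The deposited values are raw UMI counts per gene and cell in 4 matrices, 1 per strain and age, split by tag from 1 library per strain, over 32285 genes and 12 tag oligos, and per the file headers Cell Ranger 7.0.1 wrote them. Per the submitters' processing notes the build was mm10, and Cell Ranger and Seurat 4.3.0 were used. The annotation is not given in the sources used here. The reference is of C57BL/6J, so reads of SM/J can be lost or moved between copies.

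Cells with at least 500 UMIs, 200 genes and at most 10% mitochondrial UMIs were kept, and 125 doublets called per 10x run by Scrublet (expected rate 0.06) were left out. Cells were assigned to the tag with the most counts, and 16 cells of BL/6 and 24 of SM/J, all at 12 months, had no aliquot of their matrix. Leiden clustering (resolution 1.0, 30 components, 15 neighbours, 2000 variable genes, seed 0) used no members, other chaperones, immediate early genes, mitochondrial genes or receptor segments, and gave 25 clusters. When these genes were allowed, Hspa1a was the 1 member among the variable genes. A cluster was named from 6 markers for each of 13 classes, if at least 3 were detected in 10% of cells at a relative level of 0.1 and their mean level reached 0.2. Unnamed clusters held 181, 56, 128 and 65 cells.

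UMIs were summed per class, matrix and aliquot. Ratios are log2 of CPM + 1, with exact Poisson or conditional binomial 95% intervals that cover counting error only, since each group was 1 matrix. The call rule was tested on simulated data. The members, lists and rules were chosen with earlier results of these data known. Named genes are the 10 members, other chaperones called the same way in both strains, otherwise the 2 highest and 2 lowest ratios of the class and contrast, and the 5 genes most like Hspa1a and Hspa8. Bag1, Hspa1 with its sum and St13 beyond B cells were named after their values were seen. The alternatives were other scaling (TMM), pseudocounts, thinning, cell filters, clusterings, minimums and folds, and each aliquot left out. Software was Python 3.11.15, scanpy 1.11.5, numpy 2.4.6, scipy 1.17.1, pandas 2.3.3, igraph 0.11.9 and R 4.3.3 with edgeR 4.0.16 for TMM factors only.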

Additional observations from a re-analysis of the deposited data

Results flagged for a closer look

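The summed level of Hspa1a and Hspa1b in classical monocytes had opposite age ratios in the 2 strains, with all 3 aliquots of 1 age above all 3 of the other in each. The log2 ratio of 20 over 12 months was 0.89 in BL/6 and −1.35 in SM/J, a gap of 2.23 on the log2 scale. The difference was not tested, and it rests on 17 and 65 UMIs in BL/6 and 36 and 13 UMIs in SM/J. All 17 alternative settings kept each strain's direction, but not all of them could have changed it. Leaving out the clusters that 1 matrix held to over 90% took out no classical monocytes and left both ratios as they were. A larger pseudocount cannot reverse a ratio. Some settings lost the 1.5-fold or the gap between the aliquots. In BL/6 there were 4 of these: cells thinned to 1000 UMIs (1.64), a mitochondrial limit of 5% (0.75), leaving out aliquot 3 at 20 months (0.57) and leaving out cells with 3 or more of these UMIs (0.55). In SM/J there were 3: thinning (−5.19, with no UMI left at 20 months, so that its size depends on the added 1 CPM), the mitochondrial limit (−1.09) and leaving out those cells (−1.15).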

How the results depend on the processing

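Each count of called member and class pairs is given beside the share of all genes called, over the 5 classes and in either direction, under the same setting. With age it was 0 in BL/6 (4.92%) and 0 in SM/J (10.6%). It became 1 (6.01%) and 1 (9.26%) with cells weighted equally, where the minimum of 100 UMIs did not apply, 1 (8.31%) and 3 (13.3%) with a minimum of 10 UMIs only, and 1 in SM/J (4.43%) without the clusters that 1 matrix held to over 90%. Leaving out each aliquot in turn gave 0 to 1 in BL/6 (5.48% to 6.00%) and 0 to 2 in SM/J (11.9% to 13%). The strain counts were 6 (16.6%) at 12 and 4 (22.5%) at 20 months. At 12 months a minimum of 10 UMIs gave 12 (18.2%), a 2-fold rule 1 (5.33%) and leaving out aliquots 4 to 9 (17.8% to 18.4%). At 20 months TMM factors gave 8 (22.4%), the 2-fold rule 1 (9.31%) and leaving out aliquots 4 to 5 (23.9% to 25.3%). Members called in all 4 matrices numbered 3 for classical monocytes over T cells, beside 39.5% of genes (0 after thinning, beside 45.3%, 0 at 2-fold, beside 27.5%, 2 to 3 without an aliquot), 2 for nonclassical monocytes over T cells, beside 45.1% (0 after thinning, beside 65.6%, 2 to 2 without an aliquot), 1 for B over T cells, beside 16.0% (0 after thinning, beside 18.0%, 0 at 2-fold, beside 10.7%, 0 to 1 without an aliquot) and 2 for classical over nonclassical monocytes, beside 21.8% (1 after thinning, beside 36.6%, 1 at 2-fold, beside 9.01%, 1 with a mitochondrial limit of 5%, beside 16.4%, 1 to 2 without an aliquot). Stricter rules and thinning give fewer calls by construction, and for the other settings the cause was not tested. Over single members, 3116 values kept their side of the rule, 59 lost it, 45 gained it and 0 called values changed direction. Since few pairs were called, most of the 3116 were uncalled values that stayed uncalled. That count therefore says little of how stable the calls were. With cluster 10 counted as T cells, 0 members were called in T cells in any contrast. The Hspa1 sum rests on 13 to 116 UMIs per matrix, and across its 17 settings the age ratio in classical monocytes ran from 0.55 to 1.64 in BL/6 and from −5.19 to −1.09 in SM/J. In nonclassical monocytes it ran from 0.59 to 2.34 and from −2.78 to −1.39. No paired analysis was possible because each combination of strain and age was 1 matrix, the ages of a strain shared 1 library, and no test was run.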

Other observations

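Plasmacytoid dendritic cell-like cells, too few for the contrasts (29, 53, 49 and 46 cells), held 11.8, 31.6, 141.5 and 45.2 CPM of Dnajb1, from 4, 18, 54 and 20 UMIs. The immediate early genes summed to 4318, 5539.8, 2724 and 5137 CPM in the same cells. Hsp90ab1 there was at 790, 1020, 1108 and 942 CPM. Macrophage-like cells (30, 38, 35 and 398 cells) had 880, 984, 1002 and 968 CPM of Hsp90ab1.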
